A study of Mus musculus with 28 samples.

Results

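The FoxO atrophy genes and the myostatin pathway genes described here are 9 protein-coding genes that skeletal muscle uses to control its mass. Their RNA was measured in tissue labelled as ventricular myocardium, from mice with or without chronic kidney disease. They were chosen by symbol as the rows named Foxo1, Foxo3, Foxo4, Fbxo32, Trim63, Fbxo30, Mstn, Acvr2b and Fst among the 45513 gene rows of the count table. All 9 members were found, and all 9 passed the filter on low counts that left 24273 genes for testing. The rule uses gene symbols only.

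FoxO1, FoxO3 and FoxO4 are forkhead transcription factors that insulin and IGF1 signalling, acting through the kinase AKT, keep out of the nucleus. When AKT is less active they enter the nucleus and switch on genes of protein breakdown, among them the ubiquitin ligases atrogin-1 (Fbxo32) and MuRF1 (Trim63), and in skeletal muscle also MUSA1 (Fbxo30), which the bone morphogenetic protein (BMP) branch restrains. Myostatin (Mstn) is a secreted inhibitor of muscle growth that signals through the activin receptor type IIB (Acvr2b) to SMAD proteins, and follistatin (Fst) is a secreted protein that binds myostatin and activins and blocks them. In the heart the same ligases limit the size of cardiomyocytes and turn over sarcomere proteins, and myostatin is normally made at far lower levels than in skeletal muscle.

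Hearts came from 28 adult male C57BL/6 mice, 1 library each, that had been operated on at 6 weeks of age. Chronic kidney disease (CKD) was produced by 5/6 nephrectomy, the surgical loss of most kidney tissue, and the other mice had a sham operation. On day 7 each mouse was given by gavage 1 dose of the oxalate-degrading gut bacterium Oxalobacter formigenes (Oxf) or the culture medium alone (vehicle, V). All 4 groups ate a diet with 1% hydroxyproline, from which the body makes oxalate, and 0.5% calcium. The groups held 10 sham-vehicle, 6 CKD-vehicle, 5 sham-Oxf and 7 CKD-Oxf hearts, out of 10 mice planned for each. The remaining mice were not analysed here, and no group given a diet without these additions was analysed here. Replicates are named by their order within a group.

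Promoter sequences from RefSeq (build GRCm38.p6, 250 bases before to 50 after the start) were at hand for 6 of the 9 members, Foxo1, Foxo3, Trim63, Fbxo30, Mstn and Acvr2b. A pair of them is shown up to the first annotated start, that of Trim63 because it alone of the 6 held a forkhead motif, and that of Acvr2b because its RNA level was the single one of the 9 that passed a test between groups. Both run from 5′ to 3′ on the plus strand. Capitals mark the forkhead motif, which reads GTAAACA on the opposite strand, at position -194 from the Trim63 start. The Trim63 stretch is chr4:134314870-134315119 (250 bases) and the Acvr2b stretch is chr9:119401928-119402117 (190 bases).
Trim63: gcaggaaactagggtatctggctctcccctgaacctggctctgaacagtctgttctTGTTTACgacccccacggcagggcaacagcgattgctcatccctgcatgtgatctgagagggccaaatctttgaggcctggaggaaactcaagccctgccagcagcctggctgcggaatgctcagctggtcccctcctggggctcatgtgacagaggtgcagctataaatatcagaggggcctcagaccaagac
Acvr2b: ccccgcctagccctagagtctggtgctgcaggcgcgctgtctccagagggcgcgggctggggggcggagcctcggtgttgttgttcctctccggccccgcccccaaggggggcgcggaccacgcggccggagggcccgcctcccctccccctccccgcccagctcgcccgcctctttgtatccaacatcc
The forkhead motif GTAAACA was present, on either strand, in 3.65% of 32851 promoters of the same length. The other motifs searched on both strands were the insulin response motif CAAAACA (6.28% of promoters), the E-box CACGTG (7.15%), the D-box TTATGNAA (3.39%) and the SMAD box GTCTAGAC (0.213%). None of these 4 was found in the 6 members' windows, so no matches overlapped. A match is a description of the letters only. Of the Trim63 stretch 56.8% of bases were G or C, against 74.7% in the Acvr2b stretch.

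The libraries held between 19.8 M and 65.4 M counts. Sham-Oxf replicate 1 stood apart, with the lowest total and 15879 genes with a count against 27128 to 33995 in the others, and CKD-Oxf replicate 4 had 20.6% of its counts on 7SL RNA, against 1.95% to 10.6% in the other CKD-Oxf hearts. Similar 7SL shares occurred in other groups, at 21.0% in CKD-vehicle replicate 3, 19.1% in CKD-vehicle replicate 2 and 19.9% in sham-vehicle replicate 5. The tissue label was checked against markers. All 12 cardiomyocyte markers had counts in every library, at a summed level of 18413 to 48720 CPM. CPM are counts of a gene per 1 M counts of the library, scaled with TMM normalisation factors. All 6 atrial markers also had counts in every library, at a summed level of 73.7 to 3002 CPM. The markers therefore do not show tissue free of atrial RNA. The atrial sum averaged 1527 ± 945 CPM (SD) in sham-vehicle against 1043 ± 808 in sham-Oxf hearts. For CKD mice it averaged 2120 ± 658 CPM with vehicle and 1330 ± 684 CPM with Oxf. The skeletal muscle markers summed to 11.3 to 27.6 CPM in 25 hearts, 54.7 CPM in sham-Oxf replicate 1, 785.5 CPM in sham-vehicle replicate 6 and 874.9 CPM in CKD-vehicle replicate 1, and none of the 14 was at 0 in every library.

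Compared per kilobase of exon, the scale on which genes can be ranked, Trim63 was the most abundant member, with a median over the 28 hearts of 24.8 CPM per kb. Foxo3 (11.3 CPM per kb) and Fbxo32 (10.3) followed, then Foxo4 (7.25), Fbxo30 (4.71), Foxo1 (3.23) and Acvr2b (2.48). Fst (0.215 CPM per kb) and Mstn (0.108) lay lowest. The ranges of Trim63 (13.8 to 36.8) and Foxo3 (8.32 to 15.4) overlapped, as did those of Foxo3 and Fbxo32 (7.82 to 15.6). The 3 forkhead genes divided unevenly. Foxo3 made up 51.8% ± 4.1 (SD, n = 27) of the FoxO total per kb, Foxo4 33.3% ± 3.9 and Foxo1 14.9% ± 2.7, sham-Oxf replicate 1 left out. In that library Foxo3 took 81.3% and Foxo4 9.46%.

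**Figure D1:**
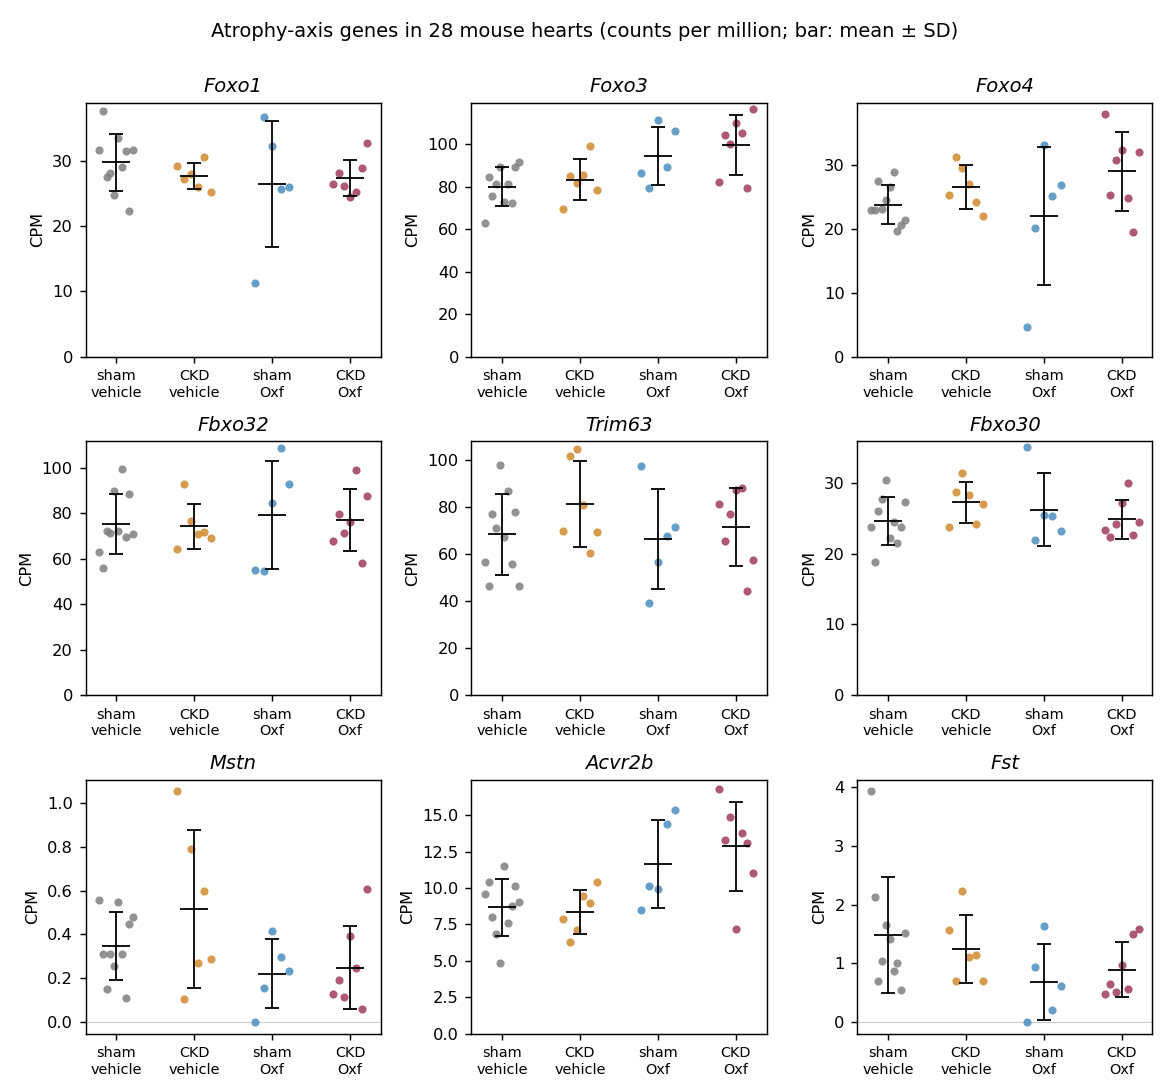
CPM of each gene (vertical axis, starting at or just below 0) in the 4 groups (horizontal axis), 1 point per heart, with bars for the mean and SD. Groups overlap for every gene, and most Acvr2b values under Oxf lie above most under vehicle. The lowest sham-Oxf points of Foxo1, Foxo4, Mstn and Fst are replicate 1.

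Across the 7 comparisons, a single member passed an adjusted p of 0.05 (edgeR's quasi-likelihood test, Benjamini-Hochberg adjustment over the 24273 genes). It was Acvr2b, which rose with Oxf averaged over the surgery groups, and in that comparison 2.81% of all tested genes passed. No member passed for CKD against sham in vehicle-gavaged mice, where 0.00824% of tested genes did, nor for Oxf against vehicle in CKD mice (0.0330%). Neither a member nor any other gene passed for Oxf in sham mice, CKD in Oxf mice, the interaction or CKD averaged over gavage (0% each by edgeR). At an unadjusted p under 0.05 the members numbered 0 for CKD in vehicle, 2 for Oxf in CKD, 2 for Oxf in sham, 0 for CKD in Oxf, 0 for the interaction, 0 for CKD averaged and 4 for Oxf averaged. The shares of all tested genes with such a p were, in the same order, 4.46%, 13.1%, 12.6%, 8.23%, 3.55%, 10.6% and 23.0%. The comparisons of Oxf with vehicle within sham and within CKD are averaged in the last one and so are not independent of it.

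**Figure D2:**
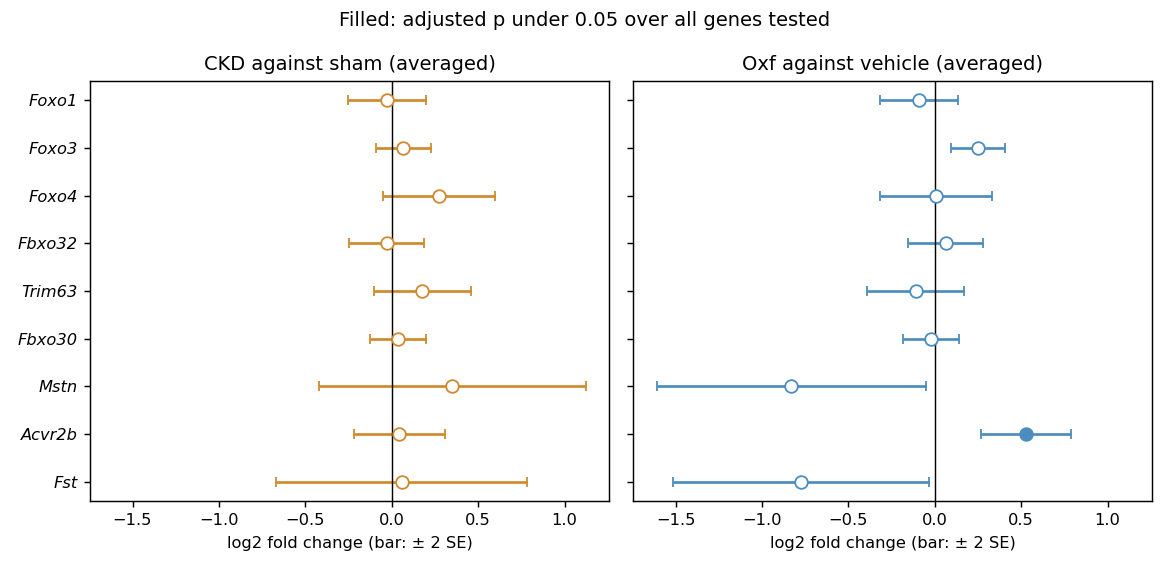
Log2 fold change of each gene (horizontal axis, bars of 2 SE to each side) for CKD against sham averaged over gavage (left) and Oxf against vehicle averaged over surgery (right). The filled symbol, Acvr2b at 0.53, is the only one with an adjusted p under 0.05; for CKD all 9 bars cross 0.

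No forkhead factor and no ligase passed the test for CKD, and in each the CKD and sham ranges overlapped. Foxo3, on chr10:42181841-42276755, averaged 80.1 ± 9.1 CPM (SD, n = 10) in sham-vehicle and 83.3 ± 9.7 (n = 6) in CKD-vehicle hearts. Foxo4, on chrX:101254528-101260873, averaged 23.8 ± 3.0 CPM in sham-vehicle and 26.6 ± 3.4 CPM in CKD-vehicle hearts. Its log2 fold change for CKD averaged over gavage was 0.28 ± 0.16 (SE, adjusted p = 0.545), the smallest p of the 9 members in that comparison. Without sham-Oxf replicate 1, where Foxo4 was at 4.65 CPM against 20.2 to 33.2 CPM in the other 4 sham-Oxf hearts, it was 0.15 (adjusted p = 0.483), and the difference between CKD-Oxf and sham-Oxf went from 0.39 to 0.14. Foxo1, on chr3:52268336-52353221, had a log2 fold change of -0.03 ± 0.11 for CKD averaged over gavage, or -0.12 without the same library, in which it was at 11.3 CPM. The interval of 2 SE to each side of the Foxo1 value with all 28 libraries ran from -0.25 to 0.20. An annotated gene on the same strand, Gm38034, lies across Foxo1 and its counts came to 21.1% of those of Foxo1. How reads that overlap both genes were counted is not given in the sources used here.

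Of the 3 ligases Trim63 and Fbxo30 had positive values for CKD and Fbxo32 a negative one, none past the threshold. Trim63, on chr4:134315120-134329629, encodes MuRF1, which marks thick-filament proteins for degradation. It ranged from 46.2 to 97.9 CPM in sham-vehicle hearts (median 69.2) and from 60.3 to 105 CPM in CKD-vehicle hearts (median 75.3). These ranges overlap, although 5 of the 6 CKD-vehicle hearts lay above the sham-vehicle median. The log2 fold change was 0.25 ± 0.18 in vehicle-gavaged mice (adjusted p = 0.955) and 0.18 ± 0.14 averaged over gavage (adjusted p = 0.675), with an interval from -0.10 to 0.46. Without CKD-vehicle replicate 3 these were 0.13 and 0.11. The first was 0.15 without CKD-vehicle replicate 2, and the second was 0.11 without sham-Oxf replicate 2 and 0.27 without sham-Oxf replicate 1. With the 7SL share of each library as a covariate the averaged value was -0.01 (adjusted p = 0.982) and that in vehicle-gavaged mice 0.13, and with the clock score as a covariate the latter was 0.0010. The mean 7SL share was 13.6% ± 6.8 in CKD-vehicle and 9.78% ± 5.2 in sham-vehicle hearts. Cardiomyocyte markers summed to 36646 ± 6417 CPM (SD) in CKD-vehicle against 28188 ± 5953 CPM in sham-vehicle hearts. The part of cardiomyocyte RNA in the Trim63 difference was not tested.

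Fbxo32, on chr15:58175879-58214932, encodes atrogin-1. It averaged 75.3 ± 13.2 CPM in sham-vehicle against 79.2 ± 23.8 in sham-Oxf hearts, and 74.2 ± 9.9 in CKD-vehicle against 77.1 ± 13.5 in CKD-Oxf hearts. The 4 means lay closer together than the SD of any of them. For CKD averaged over gavage its log2 fold change was -0.03 ± 0.11, with an interval from -0.25 to 0.19. Fbxo30, on chr10:11281330-11298052, averaged 24.6 ± 3.4 CPM in sham-vehicle and 27.3 ± 2.9 CPM in CKD-vehicle hearts, a log2 fold change of 0.15 ± 0.11 (adjusted p = 0.955), or 0.068 without CKD-vehicle replicate 3 and 0.078 with the clock score as a covariate. Of the 6 CKD-vehicle hearts 5 were above the sham-vehicle median, and the averaged CKD value was 0.04 ± 0.08. Antisense to Fbxo32 lies Gm15943, whose counts came to 6.30% of those of Fbxo32, and the use of strand in counting is not given in the sources used here.

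Under Oxf no ligase passed the test. Averaged over surgery the log2 fold change was 0.06 ± 0.11 for Fbxo32, -0.11 ± 0.14 for Trim63 and -0.02 ± 0.08 for Fbxo30. Their adjusted p-values were 0.785, 0.691 and 0.911. The intervals reached from -0.15 to 0.28 for Fbxo32, from -0.39 to 0.17 for Trim63 and from -0.18 to 0.14 for Fbxo30, which bound what 28 hearts can show.

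Of the forkhead genes, Foxo3 had the highest levels in Oxf hearts. It ranged from 63.0 to 91.6 CPM in sham-vehicle hearts (median 81.3) and from 69.7 to 99.2 CPM in CKD-vehicle hearts (median 83.4). In sham-Oxf hearts it was at 86.8, 79.3, 111, 89.3 and 106 CPM, and in CKD-Oxf hearts it ranged from 79.5 to 117 CPM (median 104.5). Of the sham-Oxf hearts 4 of 5 lay above the sham-vehicle median and of the CKD-Oxf hearts 5 of 7 lay above the CKD-vehicle median, while all ranges overlapped. The log2 fold change averaged over surgery was 0.25 ± 0.08 (p = 0.00365, adjusted p = 0.0685), so it missed the threshold with edgeR. The values within CKD (0.26 ± 0.11) and within sham mice (0.24 ± 0.11) were close to each other. DESeq2 (adjusted p = 0.0291) and limma with voom sample weights (0.00489) placed it past the threshold, as did leaving out CKD-vehicle replicate 5 (0.0340) or CKD-Oxf replicate 4 (0.0456), and 7 of 38 alternatives in all did so. With a score of clock genes as a covariate it was 0.06 ± 0.12 (adjusted p = 0.900). For Foxo1 and Foxo4 the averaged values under Oxf were -0.09 ± 0.11 and 0.01 ± 0.16. Without sham-Oxf replicate 1 they were 0.0017 and 0.14.

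The receptor gene Acvr2b, on chr9:119402118-119434995, had the clearest difference of the 9. It ranged from 4.84 to 11.5 CPM in sham-vehicle hearts (median 8.88) and from 6.32 to 10.4 CPM in CKD-vehicle hearts (median 8.42). In sham-Oxf hearts it was at 8.49, 10.1, 9.94, 14.4 and 15.4 CPM, and in CKD-Oxf hearts it was at 16.8, 13.3, 14.9, 7.17, 13.8, 13.1 and 11.04 CPM. Of the 7 CKD-Oxf hearts 6 lay above every CKD-vehicle heart, the exception being replicate 4, while in sham mice 2 of the 5 Oxf hearts lay above every vehicle heart. The group means were 8.66 ± 1.93 (SD, n = 10), 8.35 ± 1.53 (n = 6), 11.7 ± 3.0 (n = 5) and 12.9 ± 3.1 CPM (n = 7) in sham-vehicle, CKD-vehicle, sham-Oxf and CKD-Oxf hearts.

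Averaged over surgery Acvr2b rose with Oxf by a log2 fold change of 0.53 ± 0.13, or 1.44-fold (p = 0.000377, adjusted p = 0.0351). It ranked 260th of the 24273 genes by p. Within CKD mice the value was 0.62 ± 0.19 (adjusted p = 0.206) and within sham mice 0.43 ± 0.18 (adjusted p = 0.325). The difference between these 2 values was 0.19 ± 0.26 (interaction, adjusted p = 1.00), with an interval from -0.34 to 0.72, and it ran from 0.10 to 0.31 with single libraries left out. For CKD averaged over gavage the value was 0.04 ± 0.13. An antisense gene, Gm47320, had 0 to 27 counts a library, 2.53% of those of Acvr2b in all.

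The direction of the Acvr2b difference was the same in all 38 alternative settings, from 0.34 to 0.63, and the call held in 21 of them. Leaving out any 1 of 14 libraries took the adjusted p to between 0.0529 and 0.0855: sham-vehicle replicates 3, 4 and 7, CKD-vehicle replicates 1 to 4, sham-Oxf replicates 4 and 5, and CKD-Oxf replicates 1, 2, 3, 5 and 6. Over all 28 such fits the log2 fold change stayed between 0.47 and 0.57. Without both libraries that stand apart (sham-Oxf replicate 1 and CKD-Oxf replicate 4) it was 0.63 (adjusted p = 0.00343). That removal was added after the data were seen, and CKD-Oxf replicate 4 had the lowest Acvr2b of its group (7.17 CPM). Sham-vehicle replicate 5, with 19.9% of counts on 7SL RNA and the lowest Acvr2b of all hearts (4.84 CPM), was kept. Leaving out that heart alone gave 0.48 (adjusted p = 0.0467). The call also ended with no filter on low counts (0.51, adjusted p = 0.0646), with the 7SL share as a covariate (0.39, adjusted p = 0.162) and with the clock score as a covariate (0.34 ± 0.21, adjusted p = 0.730). The 7SL share averaged 9.78% ± 5.2 (SD) in sham-vehicle against 4.14% ± 3.5 in sham-Oxf hearts, and 13.6% ± 6.8 in CKD-vehicle against 8.81% ± 6.3 in CKD-Oxf hearts.

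**Figure D3:**
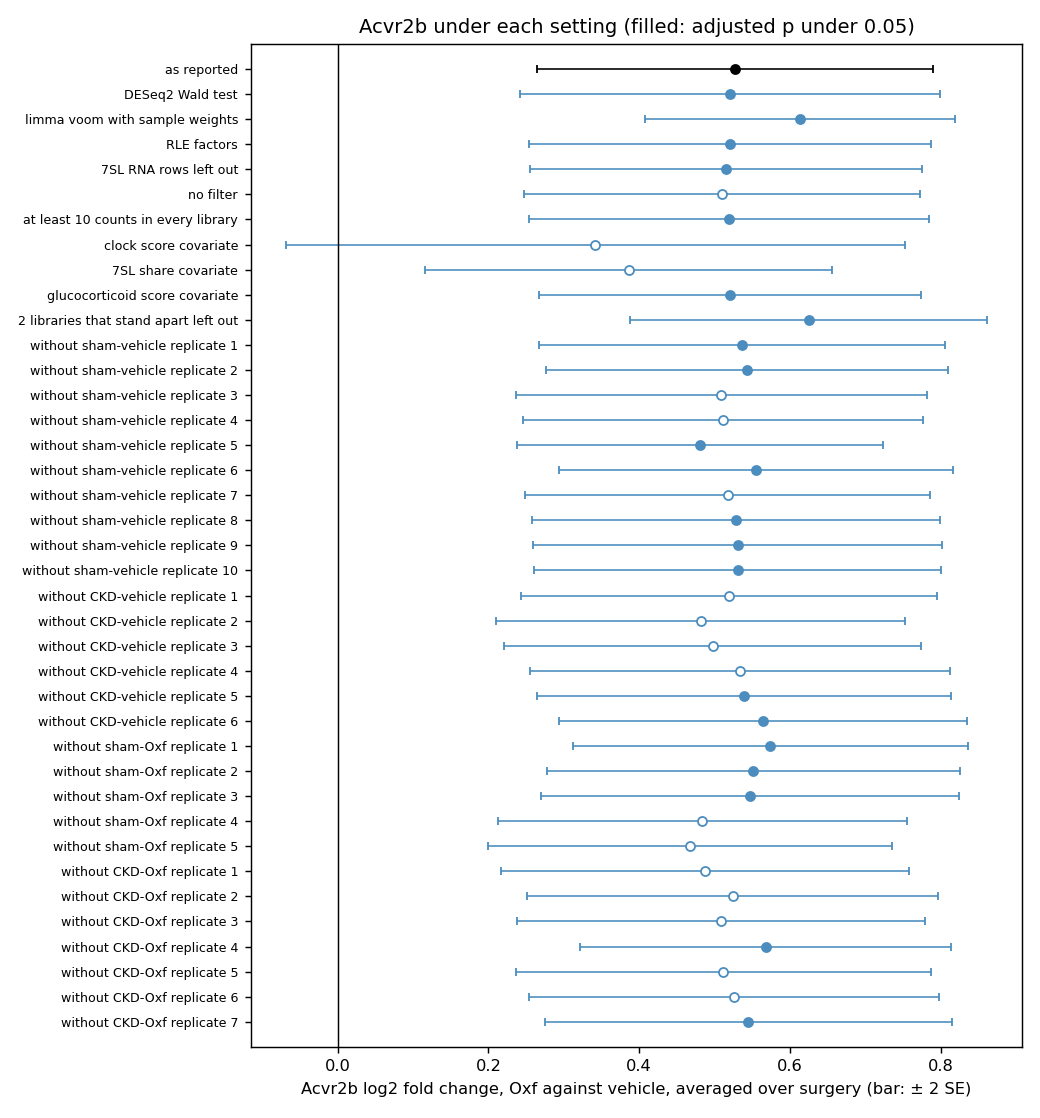
Log2 fold change of Acvr2b for Oxf against vehicle averaged over surgery (horizontal axis, bars of 2 SE to each side) as reported and under each of 38 alternatives (rows); filled symbols have an adjusted p under 0.05. All 39 estimates lie to the right of 0, between 0.34 and 0.63, and the bar crosses 0 only with the clock score as a covariate.

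Clock genes moved with the gavage groups, and the values stand here beside Acvr2b and Foxo3. Averaged over surgery, all 11 genes of a list that is high when Arntl is low had positive values under Oxf and 8 of them passed, beside 2.81% of all tested genes. The smallest p belonged to Bhlhe41 (0.80 ± 0.12), Hlf (1.07 ± 0.16), Dbp (1.51 ± 0.24) and Tef (1.18 ± 0.19), all outputs or repressors of the clock. Of 6 genes in phase with Arntl 4 passed, all lower: Arntl itself (-2.11 ± 0.30), Clock (-0.59 ± 0.10), Npas2 (-1.07 ± 0.23) and Nfil3 (-0.87 ± 0.20). Within CKD mice 5 of the 11 passed (0.0330% of all genes), led by Dbp (2.08 ± 0.36), Hlf (1.31 ± 0.24), Cry2 (0.98 ± 0.19) and Tef (1.498 ± 0.28). With 1 of the 13 CKD hearts left out in turn, these calls were lost in 4 of 13 fits for Dbp, 9 for Hlf, 11 for Cry2 and 10 for Tef. The clock score, the mean log2 level of the first list minus that of the second with sham-vehicle set to 0, was -1.29 ± 0.94 (SD) in CKD-vehicle against 0.93 ± 0.46 in CKD-Oxf hearts, and 1.34 ± 0.49 in sham-Oxf hearts. With this score as a covariate 0 of the 24273 genes passed for Oxf averaged over surgery by edgeR, and 1797 had an unadjusted p under 0.05. The part of clock phase in the Acvr2b and Foxo3 values was not tested beyond that fit. Inside the vehicle groups the clock score also differed with mouse number. It was -1.22 in sham-vehicle mouse 901 and 1.12 in mouse 910, and -2.12 in CKD-vehicle mouse 913 and -0.46 in mouse 920. The groups were also blocks of mouse number, with sham-Oxf mice from 921 to 929 and CKD-Oxf mice from 931 to 940. Every Oxf mouse had a higher number than every vehicle mouse, so between groups gavage and mouse number cannot be told apart.

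Within groups, Acvr2b and the clock score had r = 0.863 in CKD-vehicle hearts (n = 6, exact permutation p = 0.0458). Without the 2 mice farthest from the median score r was 0.928, but over so few hearts the exact permutation p was 0.167. The Spearman rho over all 6 hearts was 0.771 (exact permutation p = 0.103). The same relation had r = 0.160 in sham-vehicle hearts (n = 10, permutation p = 0.667, rho = 0.0545). In CKD-Oxf hearts it went the other way, with r = -0.328 (n = 7, exact permutation p = 0.373, rho = -0.536). Foxo4 and the clock score had r = -0.828 in CKD-Oxf hearts (n = 7, exact permutation p = 0.0206), -0.474 without the 2 farthest mice, and rho = -0.750 (exact permutation p = 0.0663). Foxo3 and a score of glucocorticoid response genes had r = 0.933 in CKD-Oxf (n = 7, exact permutation p = 0.00575), 0.723 in sham-vehicle (n = 10, permutation p = 0.0179) and 0.881 in CKD-vehicle hearts (n = 6, exact permutation p = 0.0278). Without the 2 farthest mice these were 0.932, 0.425 and 0.308 (permutation p = 0.0917, 0.292 and 0.750), so the last 2 rest on those mice. The corresponding rho values were 0.786 (exact permutation p = 0.0480), 0.673 (permutation p = 0.0382) and 0.714 (exact permutation p = 0.136). None of the 54 relations of the 9 members to the 2 scores passed adjustment, with 0.311 the smallest adjusted permutation p of r and 0.529 that of rho. The glucocorticoid score itself averaged 0.14 ± 0.24 (SD) in CKD-vehicle against 0.10 ± 0.50 in CKD-Oxf hearts, and -0.02 ± 0.23 in sham-Oxf hearts, with sham-vehicle set to 0.

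The secreted members were scarce. Mstn, on chr1:53061640-53068079, had 0 to 57 counts a library. It ranged from 0.111 to 0.559 CPM in sham-vehicle hearts (median 0.310), and the 6 CKD-vehicle hearts were at 1.05, 0.104, 0.791, 0.271, 0.597 and 0.286 CPM. In sham-Oxf hearts it was at 0, 0.158, 0.418, 0.297 and 0.234 CPM, and in CKD-Oxf hearts it ranged from 0.0622 to 0.606 CPM (median 0.193). CKD-vehicle held the highest value of all 28 hearts, 1 of 7 CKD-Oxf and 1 of 5 sham-Oxf hearts lay above the median of the matching vehicle group, and all groups overlapped. The count of 0 in sham-Oxf replicate 1 allows up to 0.142 CPM (3 counts), a limit that covers counting error only.

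For CKD in vehicle-gavaged mice the log2 fold change of Mstn was 0.56 ± 0.49 (adjusted p = 0.955), and 0.22 without CKD-vehicle replicate 1 or 0.37 without replicate 3. Averaged over gavage it was 0.35 ± 0.39, or 0.18 without CKD-vehicle replicate 1, 0.22 without sham-Oxf replicate 1 and 0.15 without CKD-Oxf replicate 7. For Oxf averaged over surgery it was -0.83 ± 0.39 (p = 0.0417, adjusted p = 0.197), and -0.66 without CKD-vehicle replicate 1. Within CKD mice the value was -1.04 ± 0.54 and within sham mice -0.62 ± 0.56, or -0.70 and -0.35 without CKD-vehicle replicate 1 and sham-Oxf replicate 1, respectively, and the value within sham mice was -0.96 without sham-Oxf replicate 3. The heart with the most Mstn was also the one with the most skeletal muscle marker RNA (874.9 CPM), while the next, CKD-vehicle replicate 3 at 0.791 CPM, had 20.0 CPM of these markers. Sham-vehicle replicate 6, with 785.5 CPM of the markers, had 0.548 CPM of Mstn, close to the 0.559 CPM of replicate 1, which had 18.7 CPM. The relation of Mstn to these markers within groups is among the 99 counted below. The mean atrial marker sums ranked the groups in the same order as the mean Mstn levels, with CKD-vehicle highest and sham-Oxf lowest. Within groups Mstn and the atrial sum had r = 0.230 over 27 hearts (rho = 0.388, adjusted permutation p = 0.407 and 0.125). The parts of skeletal muscle RNA and of atrial RNA in the Mstn differences between groups were not tested.

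Fst, on chr13:114452290-114458951, ranged from 0.551 to 3.93 CPM in sham-vehicle hearts (median 1.23) and from 0.704 to 2.24 CPM in CKD-vehicle hearts (median 1.13). In sham-Oxf hearts it was at 0, 0.946, 1.64, 0.216 and 0.625 CPM, and in CKD-Oxf hearts it ranged from 0.488 to 1.58 CPM (median 0.651). Of the CKD-Oxf hearts 2 of 7, and of the sham-Oxf hearts 1 of 5, lay above the median of the matching vehicle group, and the groups overlapped. The log2 fold change for Oxf averaged over surgery was -0.78 ± 0.37 (p = 0.0448, adjusted p = 0.205), -0.47 ± 0.51 within CKD and -1.09 ± 0.54 within sham mice. Without sham-Oxf replicate 1 the averaged value was -0.63. The value within CKD was -0.20 without CKD-vehicle replicate 3, and the value within sham was -1.66 without sham-Oxf replicate 3. With the clock score as a covariate the averaged value was -0.24 and the value within CKD mice turned to 0.15. For CKD averaged over gavage it was 0.06 ± 0.36, and -0.09 without sham-Oxf replicate 1.

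Fst followed the fibroblast markers. Within groups its log2 CPM and the summed level of 8 fibroblast genes had r = 0.771 over 27 hearts (rho = 0.734, adjusted permutation p = 0.00033 for r and 0.00156 for rho). Without the 2 hearts farthest from the median marker level r was 0.689. That marker sum averaged 754 ± 258 CPM in sham-vehicle against 540 ± 189 in sham-Oxf hearts, and 712 ± 208 in CKD-vehicle against 520 ± 140 in CKD-Oxf hearts, with values of 339 to 1268 CPM over all hearts. All 8 markers had counts in every library. Fst also went with the atrial markers within groups (r = 0.613, rho = 0.553, adjusted permutation p = 0.0177 and 0.0344). In bulk tissue fewer cells of a type and less RNA per cell cannot be told apart. The parts of fibroblast RNA and of atrial RNA in the Fst difference were not tested.

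**Figure D4:**
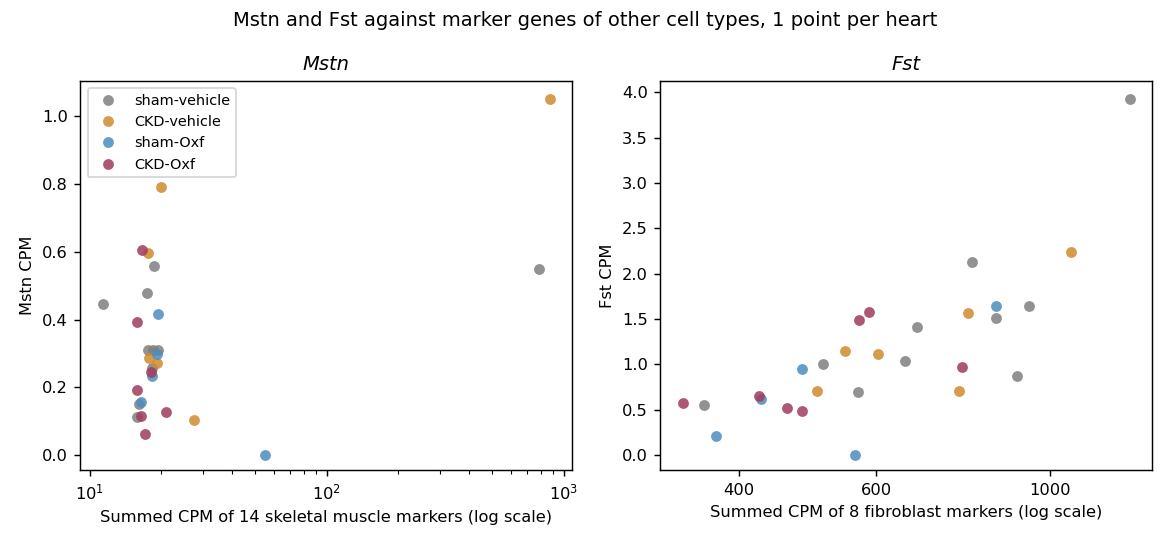
Left, Mstn in CPM (vertical axis) against the summed CPM of 14 skeletal muscle markers (horizontal axis, log scale); right, Fst in CPM against the summed CPM of 8 fibroblast markers (log scale); 1 point per heart, coloured by group. On the left 2 hearts, at 785.5 and 874.9 CPM, stand far from the rest; on the right Fst is higher where the fibroblast markers are higher, and the point at 0 is sham-Oxf replicate 1.

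Marker levels of other cell types moved with several members in the same way. Of 99 within-group relations (9 members, 10 marker lists and the 7SL share, 27 hearts without sham-Oxf replicate 1, adjusted over the 99), 19 passed for both r and rho. Only some of the 19 are described in this report. Acvr2b went with the 5 smooth muscle markers (r = 0.770, rho = 0.721, adjusted permutation p = 0.00033 and 0.000792; 0.629 without the 2 farthest). Smooth muscle markers summed to 583 ± 122 CPM in sham-vehicle against 608 ± 44 in sham-Oxf hearts, and 519 ± 130 in CKD-vehicle against 573 ± 172 in CKD-Oxf hearts. Most of that sum is Smtn (median 350 CPM), and the mean log2 level of the 5 markers relative to sham-vehicle went the other way, to -0.37 in sham-Oxf, and from -0.19 in CKD-vehicle to -0.49 in CKD-Oxf hearts. The part of smooth muscle RNA in the Acvr2b difference was not tested. Trim63 went with the endothelial markers (r = 0.848, rho = 0.790, adjusted permutation p = 0.00033 and 0.000742; 0.790 without the 2 farthest) and opposite to the leukocyte markers (r = -0.785, rho = -0.702, adjusted permutation p = 0.00033 and 0.0022; -0.703). Foxo1 showed the reverse signs, with r = -0.622 for endothelial markers (rho = -0.695, adjusted permutation p = 0.00864 and 0.00228; -0.660) and 0.738 for leukocyte markers (rho = 0.792, adjusted permutation p = 0.000566 and 0.000742; 0.760).

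The members also varied together from heart to heart inside the groups. Of the 36 pairs, 10 had a correlation past the threshold after the group means were removed (27 hearts, permutation within groups, adjusted over the 36, an analysis added after the data were seen), and 8 of these passed for rho as well. With sham-Oxf replicate 1 included 8 pairs passed, not all of them the same. Of the ligase pairs only Trim63 with Fbxo30 then passed (r = 0.688, adjusted permutation p = 0.00408). Fbxo32 had r = 0.495 with Trim63 (adjusted permutation p = 0.076) and 0.250 with Fbxo30 (0.493). Without that library the ligases varied together: Fbxo32 with Trim63 had r = 0.735 (rho = 0.727, adjusted permutation p = 0.00216 and 0.00378; 0.680 without the 2 farthest hearts). Trim63 with Fbxo30 had r = 0.625 (rho = 0.595, adjusted permutation p = 0.0137 and 0.0254; 0.604), and Fbxo32 with Fbxo30 had r = 0.561 (rho = 0.524, adjusted permutation p = 0.0169 and 0.0413; 0.596).

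The forkhead genes differed in their relation to the ligases. Foxo1 was low where Trim63 was high (r = -0.723, rho = -0.708, adjusted permutation p = 0.00216 and 0.00378; -0.723 without the 2 farthest) and likewise with Fbxo30 (r = -0.544, rho = -0.505, adjusted permutation p = 0.0295 and 0.0439; -0.549). Foxo4 was high where Trim63 was high (r = 0.600, rho = 0.546, adjusted permutation p = 0.0169 and 0.0413; 0.508), and Foxo3 where Fbxo32 was high (r = 0.528, rho = 0.537, adjusted permutation p = 0.0420 and 0.0431; 0.430). With sham-Oxf replicate 1 included, Foxo4 with Trim63 was at r = -0.067 (adjusted permutation p = 0.922). Foxo1 went with Fst (r = 0.619, rho = 0.612, adjusted permutation p = 0.0182 and 0.0254; 0.544). No pair of the 3 forkhead genes passed, the largest r being 0.248 for Foxo3 with Foxo4 (rho = 0.181, adjusted permutation p = 0.450 and 0.586; 0.0781).

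**Figure D5:**
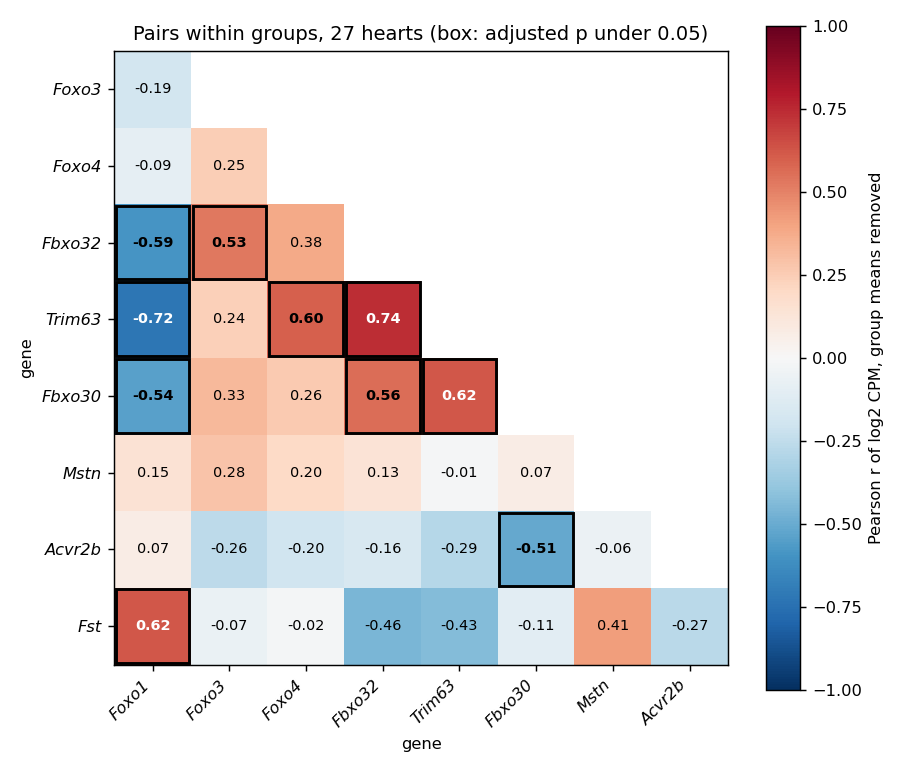
Pearson r of log2 CPM for each pair of genes (rows and columns) over 27 hearts with group means removed; red is positive, blue negative, and boxes mark an adjusted permutation p under 0.05. The 3 ligases form a positive block with r of 0.56 to 0.74, and Foxo1 is negative with each of them, at -0.54 to -0.72. With sham-Oxf replicate 1 included, Fbxo32 had r = 0.495 with Trim63, 0.250 with Fbxo30 and -0.011 with Foxo1, none past the threshold.

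The 7SL RNA share of the libraries moved with the same genes. Within groups it had r = 0.742 with Trim63 (rho = 0.806, adjusted permutation p = 0.00033 and 0.000495; 0.833 without the 2 farthest), 0.566 with Fbxo30 (rho = 0.568, adjusted permutation p = 0.0230 and 0.0267; 0.529) and -0.673 with Foxo1 (rho = -0.730, adjusted permutation p = 0.00033 and 0.000495; -0.673). Once the 7SL share was removed from every member, over the 27 hearts without sham-Oxf replicate 1, 2 of the 36 pairs still passed for r and rho. Fbxo32 with Trim63 was then at r = 0.713 (rho = 0.684, adjusted permutation p = 0.00828 and 0.0133; 0.643) and Foxo4 with Trim63 at r = 0.599 (rho = 0.584, adjusted permutation p = 0.0272 and 0.0461; 0.583). Foxo1 with Trim63 was at r = -0.450 (rho = -0.508, adjusted permutation p = 0.172 and 0.0872; -0.391). This removal was added after the data were seen.

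Other genes of the pathways were counted in fixed lists. Of 32 FoxO-linked genes 0 passed in any of the 7 comparisons by edgeR, and for Oxf averaged over surgery 9 had an unadjusted p under 0.05, where 23.0% of all tested genes did. Over the 38 alternatives 0 to 8 of them passed, and 0 to 6 with single libraries left out. Their median log2 fold change there was -0.07 against 0.00 over all tested genes, and the smallest p belonged to the mitophagy gene Bnip3 (-0.70 ± 0.21, adjusted p = 0.0623) and the deubiquitinase gene Usp14 (-0.35 ± 0.11, adjusted p = 0.0669). With CKD in vehicle-gavaged mice the median of the list was 0.11 against -0.03 over all genes, and 25 of the 32 values were positive, where 44.4% of all genes were. In that comparison 10 of 14 glucocorticoid response genes and 17 of 26 insulin and AKT genes were positive too. So were 14 of 27 myostatin and activin genes and 11 of 20 BMP genes. Of 26 insulin and AKT genes 2 passed for Oxf averaged over surgery, beside 2.81% of all tested genes. Over the alternatives 0 to 9 of them did, where 0 to 5307 of all tested genes passed. The growth factor gene Igf1, which signals against FoxO activity, fell (-0.80 ± 0.20, adjusted p = 0.0373). It averaged 33.6 ± 10.99 CPM (SD) in sham-vehicle against 19.7 ± 9.4 CPM in sham-Oxf hearts, and 31.9 ± 9.9 CPM in CKD-vehicle against 17.8 ± 6.2 CPM in CKD-Oxf hearts. Tsc1, a restrainer of mTOR, rose (0.27 ± 0.07, adjusted p = 0.0426). Igf1 lost its call when any of 13 single libraries was left out (adjusted p of 0.0538 to 0.0843) and Tsc1 when any of 15 was (0.0557 to 0.0892). Both calls also ended with no filter on low counts (adjusted p = 0.0674 for Igf1 and 0.124 for Tsc1), with the 7SL share as a covariate (0.0813 and 0.132) and with the clock score as a covariate. In the last setting Igf1 was at -0.48 (adjusted p = 0.762) and Tsc1 at 0.18 (0.734). The call for Tsc1 ended without the 7SL rows as well (0.0566).

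On the receptor side, 0 of the 27 tested genes of the myostatin and activin list (28 listed) passed in any comparison by edgeR, and 9 had an unadjusted p under 0.05 for Oxf averaged over surgery, again beside 23.0% of all genes. Over the 38 alternatives 0 to 10 of them passed, and 0 to 4 with single libraries left out. Acvr2a, the sister receptor of Acvr2b, was at 25.4 ± 5.2 CPM in sham-vehicle against 20.9 ± 3.1 in sham-Oxf hearts, and 27.8 ± 6.6 in CKD-vehicle against 21.1 ± 3.7 in CKD-Oxf hearts, a log2 fold change for Oxf of -0.34 ± 0.11 (adjusted p = 0.0707). Its sign was opposite to that of Acvr2b. The matrix gene Dcn, whose product decorin binds myostatin and which also stands among the 8 fibroblast markers, had -0.66 ± 0.20 (adjusted p = 0.0632). Of the 20 tested BMP genes (22 listed) 1 passed for Oxf averaged over surgery, beside 2.81% of all tested genes. It was the type I receptor gene Bmpr1a, which fell (-0.40 ± 0.11, adjusted p = 0.0427) and lost its call without any of 18 single libraries (0.0505 to 0.0832). It also lost its call with the clock score (-0.25, adjusted p = 0.758) or the 7SL share (-0.27, 0.215) as a covariate, with no filter (0.0674) and without the 7SL rows (0.0503). Over the alternatives 0 to 5 BMP genes passed, beside 0 to 5307 of all tested genes. Of 14 glucocorticoid response genes 0 passed in any comparison by edgeR, and 0 to 3 passed over the alternatives. For Oxf averaged 2 had an unadjusted p under 0.05, beside 23.0% of all tested genes. The smallest p belonged to Cdkn1a (-0.94 ± 0.27, adjusted p = 0.0501) and Klf15 (0.30 ± 0.14, adjusted p = 0.191).

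The genes most like each member across the 28 libraries were ranked by Pearson r of log2 CPM among 13905 or 13906 genes with a mean log2 CPM of at least 1, as a description with no test. Acvr2b was most like Plcd1 (r = 0.927), Smg6 (0.924) and Kalrn (0.914), and Trim63 was most like the sarcomere assembly gene Smyd1 (0.933), Slc35f5 (0.927) and Eno3 (0.922), the muscle enolase. Foxo3 was most like Pim3 (0.809), Tob2 (0.789) and Nfkbia (0.783). With group means removed its nearest genes were Fam107a (0.846), Klf9 (0.812) and Tsc22d3 (0.812), the last 2 being members of the glucocorticoid score. Fbxo32 was most like Zranb1 (0.750), Ccrl2 (0.743) and the stress gene Sesn1 (0.738), and Fbxo30 was most like Bcat2 (0.882), RP23-17C23.2 (0.856) and Nfs1 (0.850).

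Foxo1, Foxo4, Mstn and Fst owe part of their likeness to sham-Oxf replicate 1. Foxo4 with Wfikkn2, whose product binds myostatin, went from r = 0.954 to 0.769 without that library, with Def8 from 0.948 to 0.785 and with Borcs6 from 0.948 to 0.734. Foxo1 with Kbtbd11 went from 0.943 to 0.830, with Slc29a3 from 0.939 to 0.897 and with Kcnma1 from 0.939 to 0.812. Mstn was most like Sfrp2 (0.768, or 0.657 without that library), Cxcl16 (0.734 and 0.582) and Dnal1 (0.720 and 0.560). Fst was also most like Sfrp2 (0.914 and 0.809), a secreted Wnt modulator, ahead of Lmo4 (0.912 and 0.804) and Srpx (0.909 and 0.813). Between libraries these values share depth and normalisation factors.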

How the data were processed

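The authors deposited raw gene counts as 1 table, whole numbers per gene and library. Per the submitters' processing notes the tools named were STAR 2.6.1d, Subread, featureCounts 1.6.3, FastQC 0.11.7 and MultiQC 1.9, with build mm10; the annotation, the use of strand and the treatment of reads with several matches are not given in the sources used here. No count row lacked a gene name and 0 value columns were left unmapped. Each library is 1 mouse, grouped by the labelled surgery and gavage, and totals ran from 19.8 M to 65.4 M counts.

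Counts were normalised with TMM factors and filtered with filterByExpr (by group, minimum count 10). They were fitted in R 4.3.3 with edgeR 4.0.16 (robust quasi-likelihood, 4 group means, all 28 libraries), tested for 7 contrasts and adjusted by Benjamini-Hochberg over 24273 genes with a threshold of 0.05. SE was obtained from the log2 fold change and F as |log2 fold change|/sqrt(F), and log2 CPM used a prior count of 2. Permutation tests were two-sided, exact under 10 hearts and otherwise with 100000 draws, made within groups for pooled relations. The scripts were tested on simulated data. Alternatives were DESeq2 1.42.0, limma 3.58.1 with voom, RLE factors, other filters, the compared groups alone, covariates and each library left out. The glucocorticoid covariate, the joint removal of 2 libraries, the member pairs and the marker relations were added after the data were seen. Positions, exon lengths and overlaps come from GENCODE M21 (GRCm38, the mm10 assembly), matched by gene ID, and promoters from RefSeq (GRCm38.p6).

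The members, lists, tests and alternatives were chosen with earlier results of these data known. Named were all 9 members, of each other list the genes past the threshold (at most 4 by smallest p in a comparison) or else the 2 with the smallest p for Oxf averaged over surgery, and for each member the 3 genes with the highest r. Marker lists for cardiomyocytes, skeletal muscle, atrium, adipocytes, fibroblasts, endothelium, smooth muscle, leukocytes, red cells and hepatocytes were summed in CPM. The adipocyte, leukocyte, red cell and hepatocyte sums ran from 218 to 1185, 44.2 to 164, 5.76 to 127 and 1.80 to 95.1 CPM, and the endothelial sum from 811 to 1499 CPM.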

Additional observations from a re-analysis of the deposited data

Results flagged for a closer look

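Foxo4 in sham-Oxf replicate 1 stood outside its group: the gap of its log2 CPM to the next of the 5 sham-Oxf hearts was 0.747 of the whole range of the group, at 4.65 CPM, which is past the 95% limit of Dixon's test. Of the 36 sets compared (9 members in 4 groups) this was the only gap past the limit, and chance gives 1.8 such sets. The same library had the lowest Foxo1 of all hearts and no count for Mstn and Fst. No member passed the interaction test for a different response to Oxf in sham and CKD mice. The intervals were wide, from -0.85 to 2.09 for Fst and from -1.97 to 1.12 for Mstn. The test therefore does not show that the responses were equal.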

How the results depend on the processing

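The number of members past the threshold for Oxf averaged over surgery, 1 as reported, was 2 with limma voom, DESeq2, a filter of 10 counts in every library, the glucocorticoid score as a covariate or without the 2 libraries that stand apart (Foxo3 joined Acvr2b), and 0 with no filter, the clock score or the 7SL share as a covariate. It ran from 0 to 2 with single libraries left out. For Oxf in CKD mice it was 2 with limma voom and from 0 to 1 with single libraries left out. All genes past the threshold for Oxf averaged over surgery, 681 as reported, numbered 109 to 3362 with single libraries left out and 0 to 5307 in the other settings.

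Of 1023 values of 33 member results under alternatives 50 changed sign, none of them past the threshold, and the largest was 0.19 in size. The cause was not tested. With the clock score as a covariate the log2 fold change became 0.15 for Fst in CKD mice under Oxf; averaged over gavage, 0.039 for Fbxo32, -0.0075 for Fbxo30 and -0.15 for Fst with CKD; averaged over surgery, -0.069 for Fbxo32, 0.19 for Trim63 and 0.071 for Fbxo30 with Oxf. Klf15 and Nfil3, which are not among the 9 members, went to -0.27 and 0.075 with Oxf in that setting. With the 7SL share it became 0.13 for Foxo1, -0.0098 for Trim63 and -0.041 for Fbxo30 with CKD, and -0.027 for Foxo4, 0.14 for Trim63 and 0.093 for Fbxo30 with Oxf. Without the 7SL rows Foxo1 and Fbxo32 were at 0.0096 and 0.0044 with CKD and Foxo4 at -0.0074 with Oxf. With no filter Foxo4 was at -0.012 with Oxf, with limma voom Acvr2b at -0.0037 with CKD, and without the 2 libraries that stand apart Foxo1 at 0.015 with Oxf. Without single libraries the CKD averages ran from -0.12 to 0.049 for Foxo1, -0.086 to 0.042 for Fbxo32, -0.0087 to 0.10 for Fbxo30, -0.023 to 0.10 for Acvr2b and -0.093 to 0.31 for Fst, and the Oxf averages from -0.17 to 0.0017 for Foxo1, -0.088 to 0.14 for Foxo4, -0.0085 to 0.12 for Fbxo32 and -0.086 to 0.0069 for Fbxo30.

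No paired analysis was possible because replicate numbers were given in accession order and pair no mice. With at least 10 counts in every library Mstn and Fst had too few counts and were not tested. Depth limits Mstn most, at 0 to 57 counts a library.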
